A study of Harpegnathos saltator with 18 samples.

Results

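The 56 genes described here were abundant in the ovary of the ant Harpegnathos saltator and left only traces in most other tissues measured. They were chosen by their measured levels from 20317 gene models with HSALG identifiers. A gene entered when its mean in ovary was at least 100 RPKM, when that mean was at least 30 times the highest of the means in non-visual brain, optic lobe, retina and fat body, and when it reached 1 RPKM in at least 1 library outside the ovary. RPKM are reads per 1000 bases of gene model and per M reads of the library, where M is mega. Of 421 genes at 100 RPKM or more in ovary, 56 met the ratio, and all 56 also met the condition on a value elsewhere. The antenna had no upper bound in this choice. Ovary levels, ratios and low levels in the bounded tissues are therefore descriptions of how the genes were selected, and no test was run on them.

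Polyadenylated RNA was sequenced from 6 tissues with 3 libraries each. The ovary came from gamergates, workers that have mated and lay eggs in place of a queen, and the fat body, antenna, retina, optic lobe and non-visual brain came from workers, so ovary and caste cannot be told apart. All ants were kept in plaster nests under a controlled light cycle and fed live crickets, and no treatment or genetic change was recorded for any group. The labels do not say whether replicates came from separate animals, and p-values then describe only how these libraries vary, which may be technical in origin.

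An insect ovary holds the germ line and the somatic cells around it. Germline stem cells give rise to oocytes and to nurse cells, which make RNA and protein in bulk and pass them to the growing egg. Somatic follicle cells wrap each egg chamber and, late in its growth, secrete the layers of the eggshell. Many ovary transcripts are made in a single one of these cell types and over a short stretch of egg growth. The fat body, the insect counterpart of liver and adipose tissue, is known for making the yolk proteins that the ovary takes up. In bulk RNA, fewer cells of a type and less RNA per cell cannot be told apart.

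No identifier of the deposited table (0 of 20755) could be found among the 14329 genes of the reference gene table. Genes are therefore given by identifier, with no name, role, sequence or position, and the tissue labels could not be checked against known marker genes. The totals behind the RPKM were recovered from the steps between low values and are given in M reads. They ran from 14.7 to 30.1 M in ovary, 8.20 to 16.2 M in fat body, 10.5 to 21.1 M in retina, 11 to 26.5 M in optic lobe, 11.3 to 15.2 M in non-visual brain and 2.37 to 4.73 M in antenna. For a gene of 1000 bases, 3 reads were worth 0.0998 RPKM in ovary 2, the deepest library, and 1.27 RPKM in antenna 2, the shallowest. A value listed at 0 in antenna thus allows a level that would be several reads in other tissues, and these floors cover counting error only. How reads of near-identical copies were counted was not given in the sources used here, and since the libraries kept no strand, reads of a gene and of an overlapping antisense gene cannot be told apart.

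The 56 genes carried a large part of the ovary transcriptome. Their RPKM summed to 89262, 170769 and 104730 in ovary 1, 2 and 3, which was 21.7%, 41.3% and 26.0% of all RPKM in those libraries. Their ovary means had a median of 341.9 RPKM. At the top, 15 genes had a mean of 1000 RPKM or more, 22 lay from 200 to under 1000, and 19 from 100 to under 200. The ratio of the ovary mean to the highest of the 4 bounded means ran from 30.3 to 2768 with a median of 221, and 40 genes stood at 100 or more. In 46 of the 56 genes every ovary library lay above every worker library, against 7.07% of 18157 HSALG genes above 0 and 22.2% of the 365 other HSALG genes at 100 RPKM or more in ovary. The choice of genes used these values, and nothing is read from the difference.

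**Figure D1:**
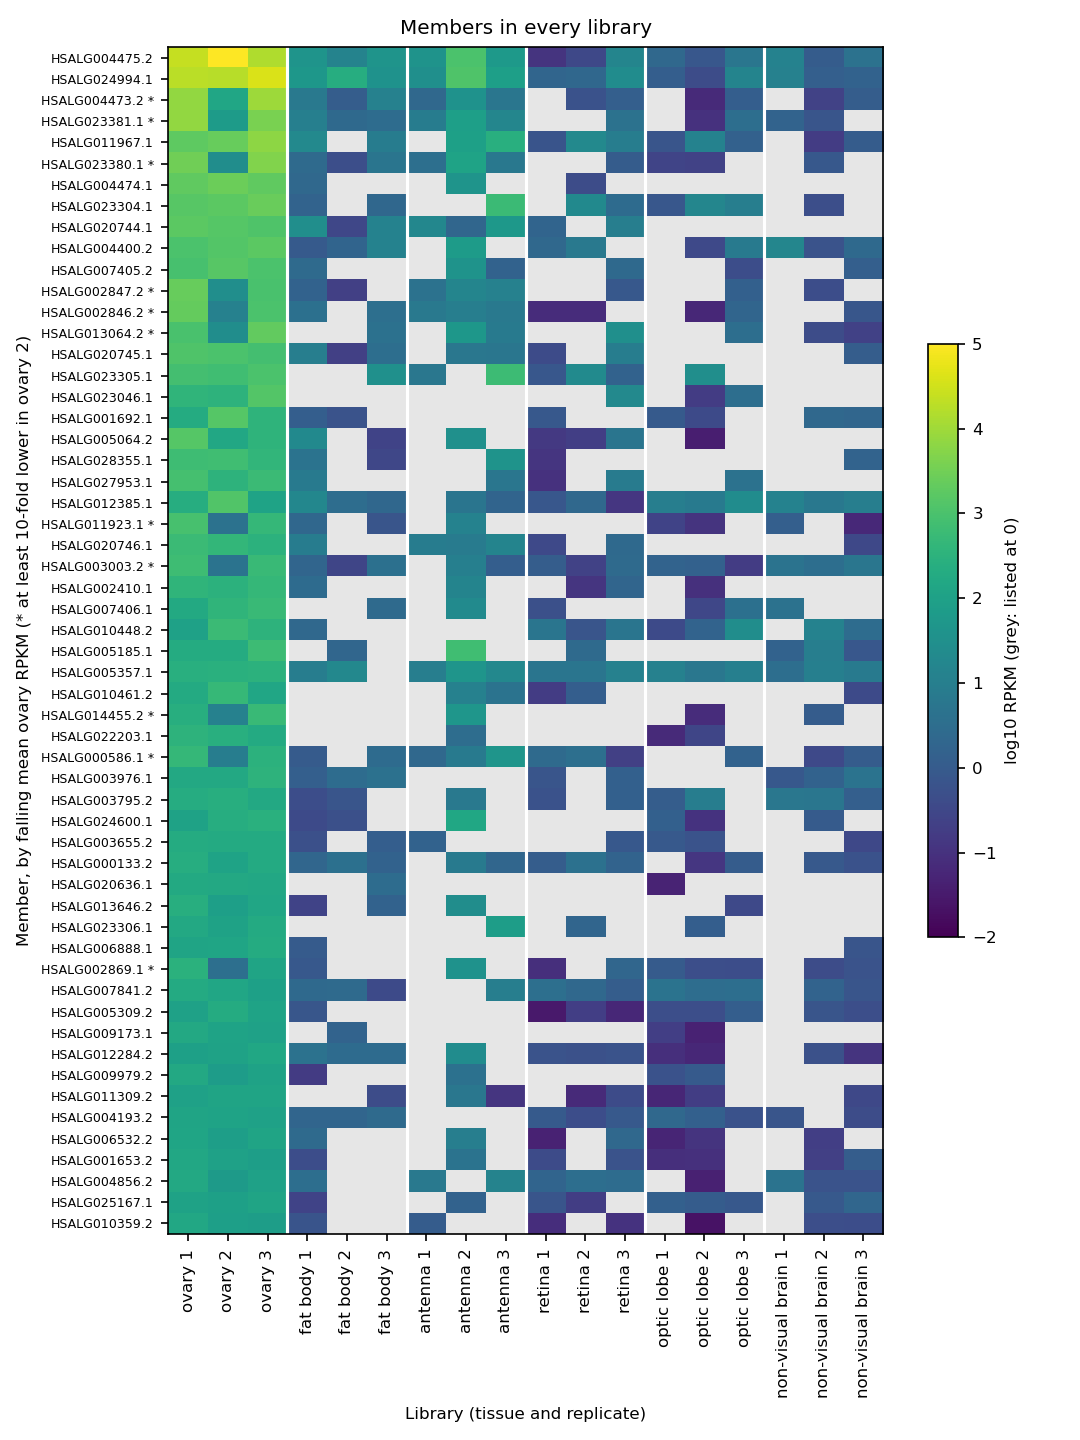
RPKM (log10 colour scale, grey where a gene is listed at 0) of the 56 genes, in order of falling mean ovary level from top to bottom, in the 18 libraries. Stars mark the 11 genes at least 10-fold lower in ovary 2 than in both other ovary libraries, and outside the ovary the brightest column is antenna 2, where 38 genes lie above 0.

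A pair of genes outweighed the rest and held 67.3% of the summed ovary mean. HSALG004475.2 stood at 23821 RPKM in ovary 1, 130006 in ovary 2 and 14408 in ovary 3 (mean 56079 ± 64196, SD, n = 3). It made up 5.80%, 31.4% and 3.58% of all RPKM in these libraries, so ovary 2 set its mean. HSALG024994.1 stood at 19298, 17719 and 40373 RPKM (25797 ± 12648, SD, n = 3) and was highest in ovary 3. These genes were also the only ones of the 56 above 0 in all 15 worker libraries.

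The next genes by ovary mean did not share a pattern across the ovary libraries. HSALG004473.2 had 7237, 139 and 9264 RPKM in ovary 1, 2 and 3 (5547 ± 4792, SD, n = 3), and HSALG023381.1 had 7261, 67.7 and 3932 (3754 ± 3599.9). Both were far lower in ovary 2 than in the other libraries. HSALG011967.1 had 1794, 2359 and 6344 RPKM (3499 ± 2480.04, SD, n = 3) and was lowest in ovary 1. At the lower edge of the choice, HSALG010359.2 and HSALG025167.1 averaged 107 and 109 RPKM in ovary, against 97.4 and 93.6 for HSALG006111.2 and HSALG008978.2 just outside. On the ratio, HSALG005357.1 at 30.3 and HSALG010448.2 at 35.5 lay just inside, and HSALG007292.2 at 29.6 and HSALG001380.2 at 29.3 just outside. The condition on a value elsewhere was met most narrowly by HSALG006888.1, at 1.05 RPKM in fat body 1, and HSALG010359.2, at 1.08 in antenna 1. No gene missed the choice by this condition alone. Of the genes that met the ratio and stayed under 1 RPKM in every worker library, the most abundant in ovary were HSALG022412.1, at a mean of 94.0 RPKM there and at most 0.556 elsewhere, and HSALG029686.1, at 76.7 and at most 0.660. In all, 2143 HSALG genes had ovary reads and stayed under 1 RPKM in every worker library, and none of them (0) reached 100 RPKM in ovary.

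A set of 11 genes, 19.6% of the 56, was at least 10-fold lower in ovary 2 than in both other ovary libraries. This set was picked out after its values were seen and carries no test. No gene of the 56 was 10-fold lower in ovary 1 or in ovary 3 than in the other libraries (0 and 0). Among the 365 other HSALG genes at 100 RPKM or more in ovary, 1 gene (0.274%) showed the same drop in ovary 2, HSALG009481.1, at 2540, 15.4 and 1719 RPKM, and 1 was 10-fold lower in ovary 1. The drop from the lower of ovary 1 and ovary 3 ran from 20.5-fold to 118-fold within the set. The next gene after the set, HSALG005064.2, had a drop of 2.26-fold, so no gene lay between.

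Besides HSALG004473.2 and HSALG023381.1, the set held HSALG023380.1, HSALG002847.2, HSALG002846.2, HSALG013064.2, HSALG011923.1, HSALG003003.2, HSALG014455.2, HSALG000586.1 and HSALG002869.1. Its summed RPKM was 25845 in ovary 1, 335 in ovary 2 and 24017 in ovary 3. All 11 genes stayed above 0 in ovary 2, with 145 to 6986 reads each, so the low values there were measured and not missing. HSALG013064.2 had 979, 26.5 and 2087 RPKM (1031 ± 1031, SD, n = 3), and HSALG023380.1 had 3131, 27.8 and 4759 (2639 ± 2403). The other 45 genes summed to 63417, 170434 and 80713 RPKM, and without HSALG004475.2 the remaining 44 summed to 39596, 40428 and 66305, so that 1 gene set the high sum of ovary 2.

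**Figure D2:**
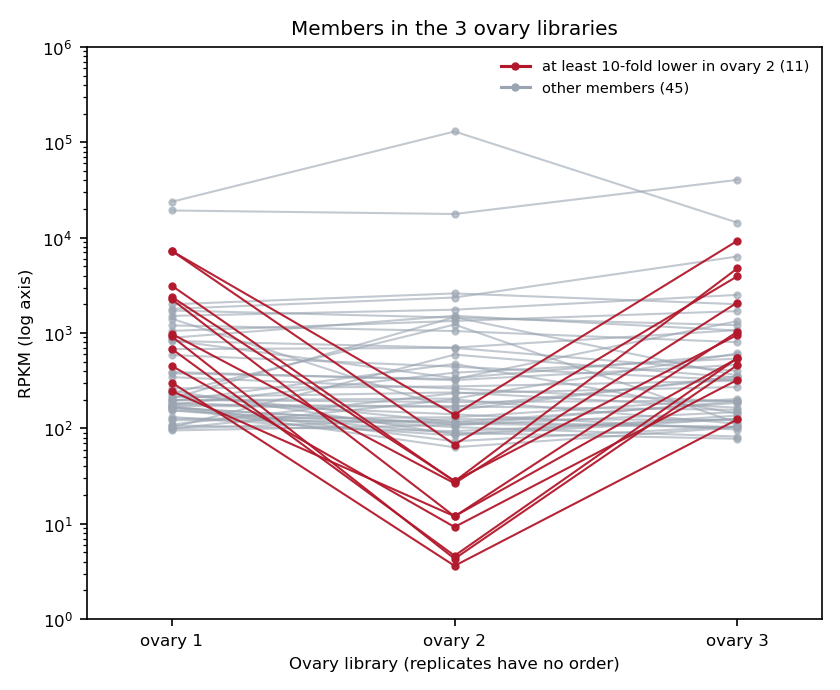
RPKM (log axis) of each of the 56 genes in the 3 ovary libraries, 1 line per gene. The 11 red lines fall to between 3.62 and 139 RPKM in ovary 2 and stand between 124 and 9264 in the other ovary libraries, while the 45 grey lines show no such fall.

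In the other direction 3 genes were at least 3-fold higher in ovary 2 than in both other libraries. They were HSALG004475.2 (5.46-fold), HSALG012385.1 (5.25-fold, at 233.8, 1228 and 114 RPKM) and HSALG001692.1 (4.09-fold, at 206, 1466 and 358 RPKM). HSALG012385.1 had the widest relative spread of all 56 genes, with a coefficient of variation (SD over mean) of 116%. HSALG003655.2 had the narrowest, 2.40%, at 198, 189 and 195 RPKM. Over the 56 genes the coefficient of variation had a median of 40.8% and quartiles of 23.6% and 86.6%. Over the 365 other ovary-abundant genes the median was 38.4% with quartiles of 27.6% and 49.2%, so the medians were close and the upper quartile was higher among the 56. HSALG004475.2 alone took 31.4% of the RPKM of ovary 2, and all RPKM of a library share 1 total. With trimmed-mean scaling between libraries, which is less sensitive to such a gene, 10 genes in place of 11 were 10-fold lower in ovary 2. As deposited, 26 of the 56 genes (46.4%) and 250 of the 365 others (68.5%) were lowest in ovary 2 of the 3 libraries. With trimmed-mean scaling these counts were 15 (26.8%) and 51 (13.97%). The median ratio of ovary 2 to the mean of the other libraries turned from 0.796 to 1.40 among the 56 genes and from 0.634 to 1.07 among the 365.

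Outside the ovary the 56 genes left traces that were small and unevenly spread. The summed RPKM averaged 2060 ± 1944 in antenna, 265 ± 48.6 in fat body, 109 ± 76.8 in retina, 92.3 ± 45.2 in optic lobe and 70.5 ± 11.1 in non-visual brain (SD, n = 3 each), against 121587 ± 43289 in ovary. Each gene was above 0 in 2 to 15 worker libraries, with a median of 8. Each reached 1 RPKM in a median of 4.5 worker libraries, and 8 genes did so in a single one. The number of genes above 0 ran from 14 (non-visual brain 1) to 40 (optic lobe 2). It did not track the summed level, since optic lobe 2 summed to 97.6 RPKM and antenna 1, with 15 genes above 0, to 150.2. Depth also differed, at 26.5 M reads in optic lobe 2 and 4.73 M in antenna 1. Of the genes above 0, 11 rested on 1 or 2 reads in optic lobe 2 and 0 in antenna 1, so the counts do not measure breadth of expression alone.

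The antenna libraries differed widely among themselves. Antenna 1, 2 and 3 summed to 150.2, 4036 and 1992 RPKM, which was 0.124%, 3.32% and 1.64% of the mean ovary sum. In the 4 bounded tissues the sum stayed between 36.2 RPKM (retina 1) and 296.1 RPKM (fat body 2) in every library. Antenna 2 and antenna 3 therefore lay above all other worker libraries, and antenna 1 lay among them. The sums rested on 644, 9016 and 3270 reads in antenna 1, 2 and 3. Without HSALG004475.2 and HSALG024994.1 the shares were 4.53% in antenna 2 and 4.65% in antenna 3.

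For 30 of the 56 genes the highest value of any worker library was in antenna 2, and for 10 it was in antenna 3. The antenna mean exceeded the mean of each bounded tissue in 39 genes, which the choice of genes favours since the antenna had no bound, and 9 genes were listed at 0 in every antenna library. In 13 genes the ovary mean was less than 30 times the antenna mean. Antenna 2 held at least 1% of the ovary level for 33 genes and antenna 3 for 14. In the bounded tissues the median gene stood at 0 to 0.270% of its ovary level in the fat body libraries, 0 to 0.109% in retina, 0 to 0.0279% in optic lobe and 0 to 0.0697% in non-visual brain. Across the 56 genes, which share their library and are not independent, Spearman's rho between the level in a worker library and the ovary mean was 0.353 to 0.505 in antenna and 0.1996 to 0.498 in fat body. It was -0.0494 to 0.378 in retina, -0.183 to 0.374 in optic lobe and 0.0170 to 0.168 in non-visual brain. In 8 of the 15 worker libraries rho lay under 0.2. In the bounded tissues the rule allows higher values to genes with a higher ovary mean, which favours a positive rho. Genes listed at 0 in a library are tied, and nothing is read from these values.

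In antenna 2 the traces were broad. HSALG024994.1 stood at 31.4, 1188 and 88.0 RPKM in antenna 1, 2 and 3, with 1536 reads in antenna 2, and HSALG004475.2 at 39.1, 1049 and 58.5, with 4127 reads in antenna 2. Both were present in every antenna library and highest in antenna 2. HSALG005185.1 was listed at 0 in antenna 1 and antenna 3 and stood at 733 RPKM in antenna 2, on 1146 reads. In ovary it stood at 197, 205 and 611 RPKM, so its antenna 2 value lay above all 3 ovary libraries and was 217% of the ovary mean. HSALG024600.1 was likewise listed at 0 in antenna 1 and antenna 3, and stood at 152 RPKM in antenna 2, on 519 reads. That value lay above ovary 1 (109.8 RPKM) and below ovary 2 (234) and ovary 3 (271).

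The 11 genes low in ovary 2 were all above 0 in antenna 2, where they summed to 430 RPKM against 335 in ovary 2. In 7 of the 11 the antenna 2 value exceeded that of ovary 2. HSALG023380.1, for example, stood at 115 RPKM in antenna 2 and 27.8 in ovary 2, and HSALG023381.1 at 88.2 and 67.7. The 10 genes in which a worker library reached into the range of the ovary libraries were 8 of these 11 with HSALG005185.1 and HSALG024600.1. Since the 11 genes were picked for low values in ovary 2, each of these comparisons is favoured by the choice, and nothing is read from them.

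In antenna 3 the highest values were those of other genes. HSALG023304.1, HSALG023305.1 and HSALG023306.1 had 593, 647 and 79.95 RPKM there, on 1237, 690 and 51 reads, which was 30.7%, 74.6% and 51.4% of their ovary means. All 3 were listed at 0 in antenna 2, and in antenna 1 HSALG023305.1 alone was above 0, at 6.02 RPKM. HSALG011967.1 stood at 258 RPKM in antenna 3 on 289 reads, at 93.8 in antenna 2 and at 0 in antenna 1. HSALG024994.1, at 88.0 RPKM, lay between HSALG011967.1 and HSALG023306.1 there. By percent of the ovary level HSALG000586.1 (17.0%) and HSALG004856.2 (11.9%) stood above HSALG011967.1 (7.37%).

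Of the 10 genes highest in antenna 3 among worker libraries, 5 were also highest, within their tissues, in retina 2 and optic lobe 2, a set noticed after the values were seen and given without a test. In retina 1, 2 and 3 HSALG023304.1 had 0, 20.4 and 2.78 RPKM, and in optic lobe 1, 2 and 3 it had 0.774, 16.5 and 10.1. HSALG023305.1 had 0.810, 21.8 and 1.63 RPKM in retina and 0, 28.6 and 0 in optic lobe. HSALG011967.1 had 0.642, 19.6 and 9.33 RPKM in retina and 0.721, 12.5 and 1.48 in optic lobe. HSALG023306.1, at 1.87 RPKM in retina 2 and 1.26 in optic lobe 2, was listed at 0 in every other retina and optic lobe library. HSALG004856.2 was highest in the same libraries at lower levels, 13.2 RPKM in antenna 3, 3.34 in retina 2 and 0.0444 in optic lobe 2, where it had 1 read. HSALG020744.1, also highest in antenna 3 at 53.6 RPKM, was listed at 0 in both retina 2 and optic lobe 2. The 32 HSALG genes that the same rule picks for retina summed to 35.4% of their retina level in antenna 3. In antenna 2 and antenna 1 they summed to 2.93% and 1.53%. The 14 genes the rule picks for fat body summed to 7.77%, 1.29% and 1.09% in antenna 3, 2 and 1. For these tissues too the rule sets no upper bound on the antenna, so high antenna values are favoured by the choice. The part of tissue mixture in the ovary gene values of the antenna libraries was not tested.

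**Figure D3:**
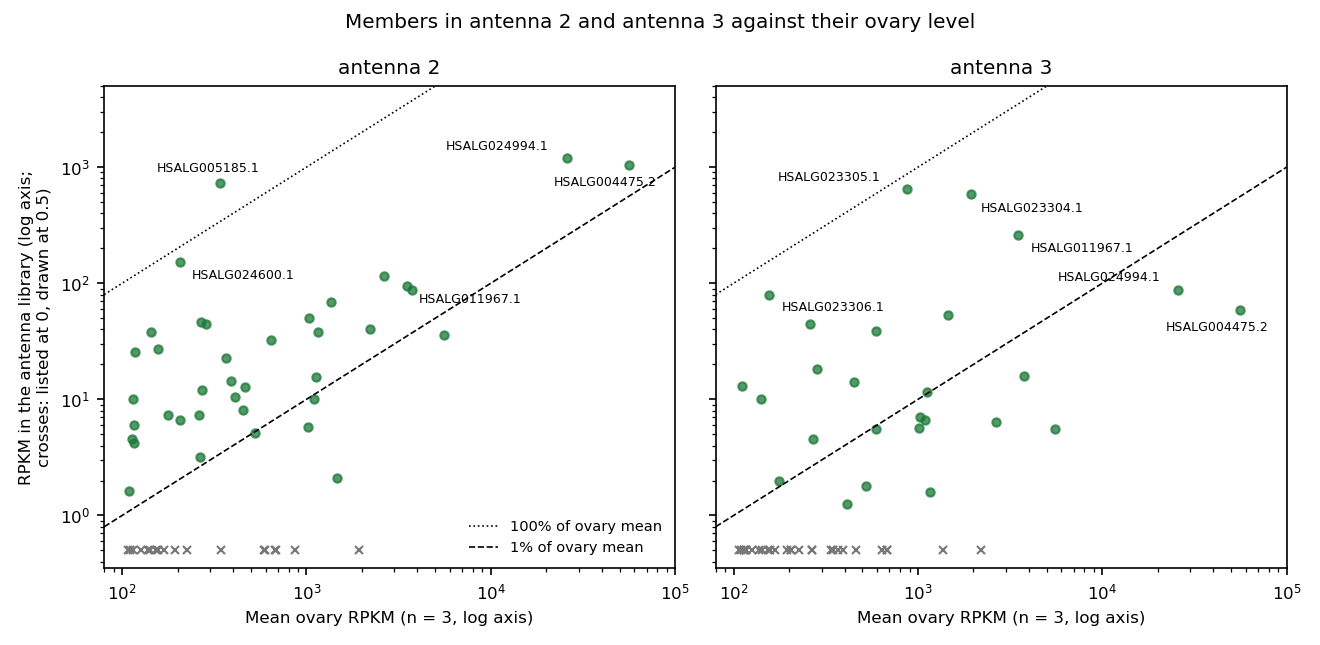
RPKM of each of the 56 genes in antenna 2 (left) and antenna 3 (right) against its mean ovary RPKM (n = 3), both axes log; crosses are genes listed at 0, and the lines mark 100% and 1% of the ovary level. HSALG005185.1 lies above the 100% line in antenna 2 at 733 RPKM, and HSALG023305.1 at 647 RPKM in antenna 3 is listed at 0 in antenna 2.

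Among the 4 tissues that the rule bounded alike, the fat body most often held the highest mean, in 28 of the 56 genes, followed by retina in 10, optic lobe in 9 and non-visual brain in 9. HSALG024994.1 was the highest of the 56 in fat body, at 51.4, 234 and 36.6 RPKM, and HSALG004475.2 was next, at 42.5, 13.2 and 41.1. In retina HSALG024994.1 had 1.91, 2.15 and 25.4 RPKM and HSALG004475.2 had 0.114, 0.324 and 15.3, so retina 3 overlapped with fat body for HSALG004475.2 and not for HSALG024994.1. Retina 3 also held most of HSALG013064.2, the gene with the highest retina mean, at 0, 0 and 31.3 RPKM.

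The brain parts were led by other genes. HSALG012385.1 had the highest mean of the 56 both in optic lobe (9.79, 7.69 and 24.6 RPKM) and in non-visual brain (12.8, 6.48 and 9.99). In retina it had 0.772, 2.33 and 0.130 RPKM, below every library of either brain part. HSALG010448.2 came next in optic lobe, at 0.373, 1.72 and 27.2 RPKM, so optic lobe 3 set its mean. HSALG005357.1 came next in non-visual brain, at 3.40, 10.3 and 7.18 RPKM. It stood at 5.93 to 11.7 RPKM in optic lobe and 5.26 to 11.9 in retina, and these groups overlapped.

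Whether the traces differed between the bounded tissues was tested with limma on log2(RPKM + 1) over 12996 genes, which included all 56. The filter asked for 1 RPKM in at least 3 libraries of any tissue. All 56 passed it through their 3 ovary libraries alone, whatever their levels in the tissues compared. A gene was called at a Benjamini-Hochberg adjusted p under 0.05. For any difference among fat body, retina, optic lobe and non-visual brain, 42.8% of all genes tested were called. Of the 56, 3 (5.36%) were called, and 5 had an unadjusted p under 0.05. The rule holds the 56 genes low in all 4 tissues, which leaves little room for a call. Their share below the background is thus favoured by the choice, and nothing is read from it. The called genes were HSALG024994.1 (adjusted p = 0.0158, limma), HSALG003976.1 (0.0296) and HSALG012385.1 (0.0429). HSALG003976.1 had 1.33, 3 and 4.15 RPKM in fat body and was listed at 0 in every optic lobe library. Each call ended without single libraries. Without fat body 2 the adjusted p of HSALG024994.1 was 0.11. That of HSALG003976.1 was 0.0604 and 0.0710 without fat body 2 or 3, and 0.0807, 0.0755 and 0.0595 without optic lobe 1, 2 or 3. That of HSALG012385.1 lay above the threshold when any 1 of 9 libraries was left out, with the highest value, 0.17, without retina 3. It was 0.0733 and 0.173 with a pseudocount of 0.1 and 5, 0.0757 without the filter on low values, 0.269 and 0.228 with trimmed-mean scaling and quantile normalization, and 0.392 with voom on recovered reads. The count of 3 became 1 without fat body 2 or without any 1 optic lobe library, and 6 without antenna 2. Without fat body 2 the 1 gene called was not among the 3 (0 shared), and without any 1 optic lobe library it was. The fit took its spread from all 6 tissues, ovary and antenna included. With only the 4 compared tissues in the fit, 8 of the 56 (14.3%) were called, against 55.9% of all genes.

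Fat body was then set against the mean of the 3 head tissues, with a call also requiring a log2 difference of at least 1. Of all genes tested 5.52% were higher in fat body and 26.7% lower, and of the 56 genes 3 (5.36%) were higher and 0 lower. At an unadjusted p under 0.05 the counts among the 56 were 7 and 0. The rule holds the head tissues low, and a gene near 0 RPKM there cannot be lower in fat body by a log2 difference of 1. Nothing is therefore read from the 0 lower calls. The share of higher calls among the 56 was near the background as deposited. It was 12.5% against 9.43% of all genes with trimmed-mean scaling and 14.3% against 9.82% with quantile normalization. HSALG024994.1 was higher by 4.07 on the log2 scale (SE 0.97, adjusted p = 0.00392, limma), HSALG004475.2 by 2.98 (SE 0.96, adjusted p = 0.0231) and HSALG020744.1 by 2.48 (SE 0.85, adjusted p = 0.0313). HSALG020744.1 had 29.4, 0.304 and 12.6 RPKM in fat body and 1.75, 0 and 9.92 in retina. Fat body 2 thus lay within the range of retina. The gene was listed at 0 in every library of optic lobe and non-visual brain. The call of HSALG004475.2 ended without fat body 1 (adjusted p = 0.0966) or fat body 3 (0.103). That of HSALG020744.1 ended without fat body 1 (0.234), fat body 3 (0.147) or retina 2 (0.0531). The count of 3 became 1 without fat body 1 or 3, and 5 without antenna 3 or retina 3.

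The retina was compared with the mean of optic lobe and non-visual brain in the same way. Of all genes tested 4.15% were higher in retina and 25.6% lower, and of the 56 genes 0 were higher and 1 (1.79%) was lower. With an unadjusted p under 0.05 the counts were the same. The rule holds the 56 genes low in retina and in both brain parts, which leaves little room for a call in either direction. Nothing is read from their shares beside those of all genes. HSALG012385.1 differed by -2.65 on the log2 scale (SE 0.74), lower in retina, with an adjusted p of 0.0125 by limma. The call ended without retina 3 (adjusted p = 0.0818), with trimmed-mean scaling (0.136), quantile normalization (0.145), voom (0.149) and a pseudocount of 5 (0.0539).

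Over the 56 genes the median log2 difference was 0.25 for fat body against head tissues and 0.02 for retina against the brain parts, with 34 and 29 genes above 0. Over all genes tested these medians were -0.79 and -0.90, with 20.5% and 15.8% of genes above 0. The rule holds the 56 genes low in these tissues, where differences of log2(RPKM + 1) are small. Nothing is therefore read from the contrast with all genes. The background itself moved with the scaling. With trimmed-mean scaling the medians of all genes went to -0.39 and -0.11, and those of the 56 genes to 0.48 and 0.39, with 41 and 37 of them above 0. With quantile normalization the medians were -0.02 and -0.07 over all genes and 0.80 and 0.49 over the 56, with 52 and 50 above 0. The share of all genes above 0 was not counted under either scaling. These counts of the 56 therefore have no background beside them, and nothing is read from them. The share of higher among all fat body calls went from 17.1% to 36.8% with trimmed-mean scaling and 48.2% with quantile normalization. For retina calls it went from 13.9% to 50.1% and 48.4%.

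**Figure D4:**
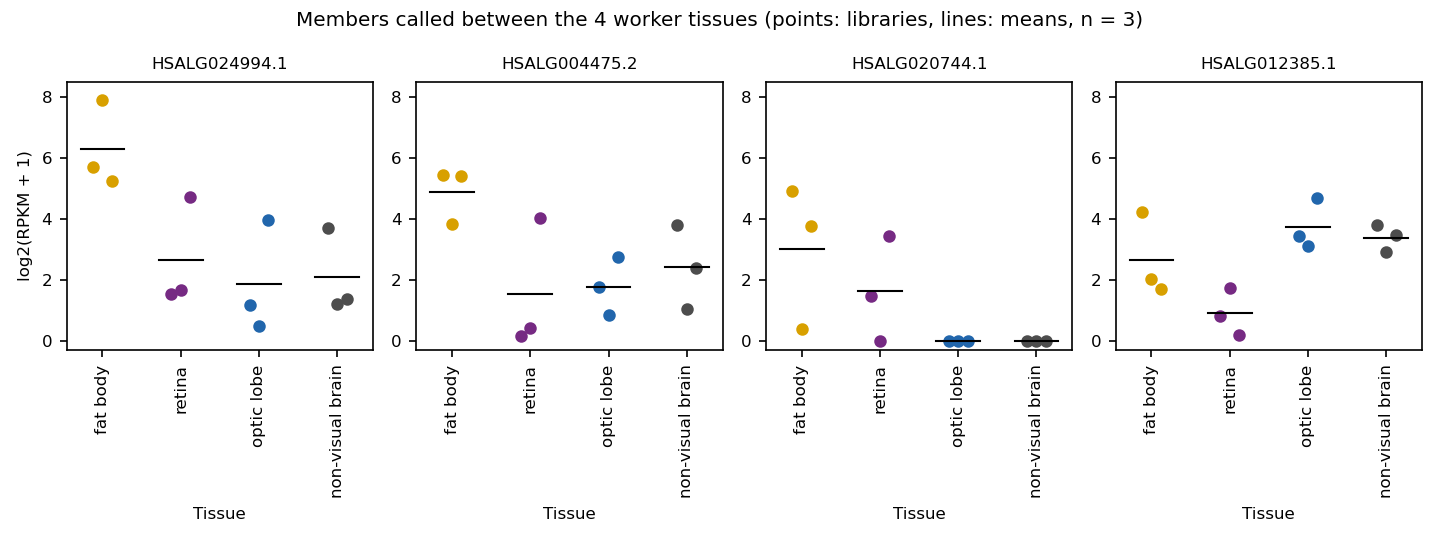
log2(RPKM + 1) of the 4 genes called in the comparisons of fat body or retina, in the 3 libraries of each of the 4 tissues (points) with their means (lines). HSALG024994.1 is higher in every fat body library than in any library of the other tissues, while the fat body points of HSALG020744.1 spread from 0.304 to 29.4 RPKM, and HSALG012385.1 in retina lies below both brain parts in every library.

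The 56 genes were also described by features that their choice did not use. Their coding length, recovered from the RPKM steps, had a median of 802.5 bases (quartiles 446 and 1142, range 210 to 3141). The median was 645 bases for the 311 of the 365 other ovary-abundant genes with a recovered length, and 771 bases for 16809 HSALG genes. The 11 genes low in ovary 2 had a median of 1044 bases against 789 for the other 45. The most abundant of the 56 were not the longest: the 15 genes at 1000 RPKM or more had a median of 687 bases.

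Several of the genes carried adjacent identifier numbers. Of the 56, 15 (26.8%) had a number that differed by 1 from that of another of the 56, and they formed 6 runs. Among the 365 other ovary-abundant genes 34 (9.32%) formed 17 such runs. Whether identifier numbers follow the order of genes in the genome was not given in the sources used here. Runs joined genes of unlike and of like behaviour. HSALG004473.2, HSALG004474.1 and HSALG004475.2 stood at 139, 2604 and 130006 RPKM in ovary 2, the first far below and the last far above its values in the other ovary libraries. HSALG002846.2 with HSALG002847.2, and HSALG023380.1 with HSALG023381.1, fell together in ovary 2. HSALG023304.1, HSALG023305.1 and HSALG023306.1 were the run high in antenna 3 and at 0 in antenna 2, and HSALG020744.1, called in fat body, was followed by HSALG020745.1 and HSALG020746.1.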

How the data were processed

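The authors deposited RPKM per gene and library, with no pooling. STAR 2.5.0b and DESeq2 appear in the submitters' processing notes without a role. Genome build, annotation and counting were not given in the sources used here. All libraries share 1 flow-cell label and so no batch could be set against tissue, and no 2 libraries held identical values (0 pairs). Reads, coding lengths and library totals were recovered from RPKM steps for 17236 rows (92.7% of 18589 above 0). Of their values, 99.4% were whole within the rounding of 6 digits and a relative allowance of 1.5e-06. Between 45.4% and 67.0% of counts from 1 to 10 were even, with an excess of even counts in some libraries, so reads are not taken as independent molecules. Of recovered HSALG lengths 96.0% were multiples of 3. Tests used limma 3.58.1 in R 4.3.3 on log2(RPKM + 1) with a mean-variance trend, all 6 tissues in 1 fit, rows reaching 1 RPKM in 3 or more libraries, two-sided. The procedures were tested on simulated data. Differences on this scale understate changes of low genes. Members, lists and tests were chosen with earlier results of these data known. Genes were named as the 5 highest in ovary, 3 in antenna, 2 in each bounded tissue, the 2 nearest each threshold on either side, the extremes of ovary spread and up to 2 called members per direction and test. Others were named after their values were seen. None of the 438 XLOC rows (0) met the rule. The planned cell type markers could not be applied.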

Additional observations from a re-analysis of the deposited data

How the results depend on the processing

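No log2 difference of the 4 genes called in fat body or retina changed sign under the alternatives run. HSALG012385.1 kept a negative difference in retina but lost its call with trimmed-mean scaling, quantile normalization or voom. With each of these, 1 other of the 56 genes was called higher in retina. Library weights come from an iteration that stopped before it converged. The count of the 56 genes called for any difference among the 4 tissues was 3, and became 1 with a pseudocount of 5, 7 with quantile normalization, 22 with library weights, 5 with voom on recovered reads and 8 with only the 4 tissues in the fit. The shares of all genes called were then 43.5%, 27.7%, 85.8%, 40.6% and 55.9%. The rule holds the 56 genes low in the 4 tissues under every setting, which favours a lower share of calls among them. Nothing is read from that lower share, nor from the counts of lower calls given below. The count higher in fat body was 3, and became 6 with a pseudocount of 0.1, 1 with a pseudocount of 5 or no filter, 7 with trimmed-mean scaling, 8 with quantile normalization, 12 with library weights, 5 with voom and 7 with only the 4 tissues. Beside these stood 4.77% of all genes with a pseudocount of 0.1 (10.7% of the 56), 4.90% with a pseudocount of 5 (1.79%), 3.58% without the filter (1.79%), 9.43% with trimmed-mean scaling (12.5%), 9.82% with quantile normalization (14.3%), 7.31% with library weights (21.4%), 5.64% with voom (8.93%) and 6.52% with only the 4 tissues (12.5%). The count higher in retina was 0 and became 4 with library weights (7.14% of the 56, against 6.50% of all genes). It became 1 (1.79%) with trimmed-mean scaling, quantile normalization, voom or only the 4 tissues. Of all genes 7.75%, 7.79%, 4.50% and 4.91% were then higher. The count lower in retina was 1 and became 4 with library weights (7.14% of the 56, against 43.7% of all genes). It became 0 with a pseudocount of 5, trimmed-mean scaling, quantile normalization or voom. Of all genes 16.6%, 7.73%, 8.30% and 21.1% were then lower. Leaving out 1 library gave 1 to 6, 1 to 5, 0 to 0 and 0 to 1 calls in these comparisons, and 53 to 64 genes under the selection rule, of which 51 to 56 were among the 56. A minimum of 200 RPKM in ovary left 37 genes. Leaving out 1 ovary library moved the summed level of antenna 2 to between 2.93% and 4.16% of ovary and that of antenna 3 to between 1.45% and 2.05%. The causes were not tested.

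With the replicate block the counts were 3 for any difference and 3 for higher in fat body, and HSALG012385.1 lost its call for any difference (adjusted p = 0.0541, limma). The replicate numbers did not pair the samples: in 0 of 15 tissue pairs did every same-numbered pair correlate above 0.1, and the mean correlation was -0.000935 for the same number and 0.00124 for others. Depth limits the antenna most, where 1.27 RPKM is 3 reads at 1000 bases in antenna 2.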

Other observations

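The selection rule was also applied with each other tissue in the place of ovary, bounding the tissues other than antenna in the same way. For ovary it picked 56 of the 421 HSALG genes at 100 RPKM or more (13.3%). For retina it picked 32 of 342 (9.36%), for fat body 14 of 444 (3.15%), for antenna 7 of 373 (1.88%), for non-visual brain 3 of 423 (0.709%) and for optic lobe 0 of 367. These shares were not tested. The antenna had no upper bound for the genes of other tissues, which favours high values of those genes in antenna libraries. In the library of another tissue where they were highest, the ovary genes summed to 3.32% of their ovary level (antenna 2), the fat body genes to 7.77% of theirs (antenna 3) and the retina genes to 35.4% of theirs (antenna 3). The antenna genes summed to 0.9986% of their antenna level in retina 2, and the non-visual brain genes to 1.22% of theirs in optic lobe 3.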
